A study of Mus musculus with 8 samples.

Results

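The genes described here are 10 members of the matrix protease system: the matrix metalloproteinases Mmp2, Mmp3, Mmp9, Mmp10, Mmp13 and Mmp14, the tissue inhibitors Timp1, Timp2 and Timp3, and the related secreted protease Adamts1. They were found by their gene names among the non-control probes of 8 one-colour Agilent arrays. They are represented by 11 of 55681 probes, with 2 probes for Timp2 and 1 for each other gene. The arrays held RNA of MAM326, a mouse mammary cancer cell line, separated by fluorescence-activated sorting into GFP-positive cells (4 arrays) and GFP-negative cells (4 arrays). All cells grew in medium with serum and were sorted 2 days after they were seeded. The labels describe separate experiments run at several passages, and 20 ng of total RNA was labelled per array. Both groups come from this single line, and the labels do not say what drives GFP in it.

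Matrix metalloproteinases are zinc-dependent enzymes that cut collagens, laminins and other matrix proteins and also release growth factors and cell surface proteins. Most are secreted as inactive pro-enzymes, and TIMPs block the activated enzymes by occupying their active site. At the cell surface Mmp14 activates pro-Mmp2 through a bridge formed by Timp2, so TIMP2 takes part in activation as well as inhibition. In the mammary gland these proteases act in branching, involution and tumour invasion.

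None of the 10 genes differed between GFP-positive and GFP-negative cells past the threshold, an adjusted p of 0.05 over all 19709 features tested with limma (adjusted p from 0.277 to 0.993). Over all features 505 passed, or 2.56%, of which 359 were higher (1.82%) and 146 lower (0.741%) in GFP-positive cells. With arrays scaled to their median these were 182 and 21. At an unadjusted p under 0.05 the count of the 10 genes was also 0, against 23% of all features, with 7.83% higher and 15.1% lower. The groups overlapped for all 10 genes, while they did not overlap for 16.7% of the features. The median difference of the 10 genes was -0.04 on the log2 scale, against -0.06 over all features, and 4 differences were positive and 6 negative. Over all 19709 features 7750 were positive and 11959 negative. Of the 6 metalloproteinases 4 were positive, and all 3 TIMPs were negative, by amounts that did not pass the test, though Timp2 turned to 0.03 with quantile normalization. With 10 genes, a share called of 0 lies close to the share over all features and is not a result about these genes.

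Levels are log2 processed signals relative to each array's 75th percentile, so a level of 0 is that percentile. Errors beside levels are SDs over 4 arrays, and errors beside differences are standard errors of the fit. Between 45.1% and 57.4% of probes were well above background per array, and array pairs correlated across genes with r from 0.977 to 0.995. The 8 mammary epithelial markers looked up, among them Epcam, Krt8 and Krt18, were well above background on all 8 arrays. Of 9 fibroblast markers 7 were well above background on at least 4 arrays, and Lum and Fap on 0 of 8. Of the 7 tested, 6 were lower and 1, Thy1, was higher in GFP-positive cells. Their median difference was -1.75, and 0 passed the threshold. Of 7 macrophage and leukocyte markers, Csf1r, Itgam, Cd14 and Cd68 were well above background on all 8 arrays, Ptprc and Adgre1 on 1 each and Fcgr1 on 0. Their summed signal, in multiples of the 75th percentile, was 18.6 to 26.9 on GFP-positive and 16.1 to 22.2 on GFP-negative arrays. Cd68 rose by 1.00 and Cd14 by 0.56 in GFP-positive cells (adjusted p = 0.00436 and 0.0498, limma). Csf1r differed by 0.29 and Itgam by 0.03, and neither passed (adjusted p = 0.673 and 0.913, limma). Of 6 endothelial markers Kdr was well above background on all 8 arrays, Pecam1 on 3 of each group, Vwf on 1 GFP-positive array, and Cdh5, Tek and Tie1 on 0. Because these are bulk samples, fewer cells expressing a gene and less RNA of it per cell cannot be told apart.

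**Figure D1:**
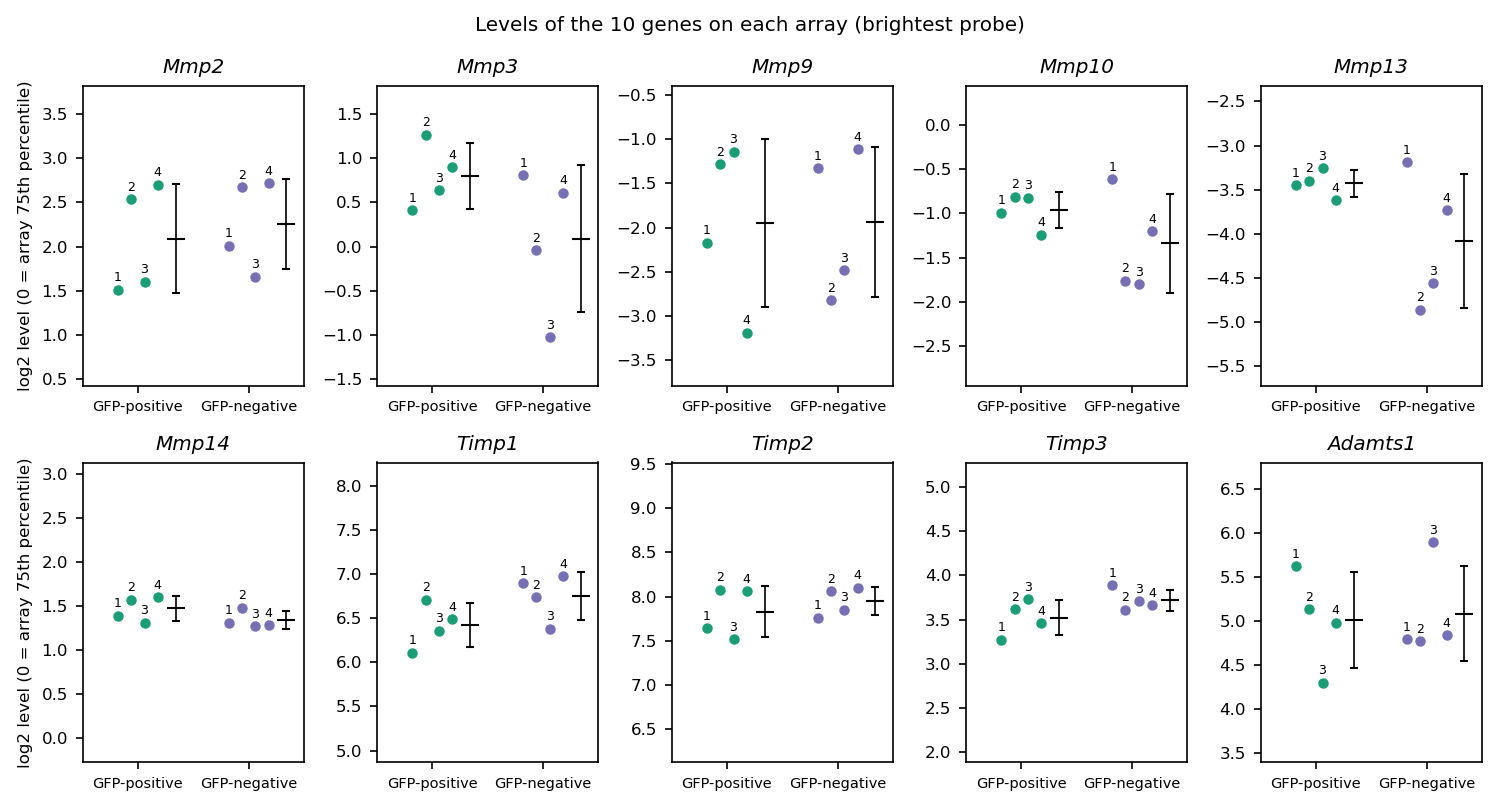
Log2 level of the 10 genes on each array, relative to the array's 75th percentile, with GFP-positive arrays in green and GFP-negative arrays in purple. Digits are replicate numbers, the bar is the mean ± SD of 4 arrays, and every panel spans the same number of log2 units. The groups overlap in every panel.

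The collagenase and the stromelysins lie near each other on chromosome 9, and each has a copy of the AP-1 element, the binding sequence of the Fos and Jun family, in its promoter. The element searched was TGAGTCA on both strands, which reads TGACTCA on the other strand. RefSeq windows (GRCm38.p6) of 250 bases before to 50 bases after the start were at hand for 8 of the 10 genes, all but Mmp2 and Mmp9. The element was found in Mmp3, Mmp10 and Mmp13, and in 5.2% of 32851 promoter windows of the same length. It starts 46 bases before the annotated start in Mmp3, 63 before it in Mmp10 and 35 before it in Mmp13. A TATAAA match, found on either strand in 13.6% of windows, was present in the same 3 genes and in Adamts1. GGGCGG, found on either strand in 35.7% of windows, was present in Mmp14, Timp1, Timp2, Timp3 and Adamts1. A match describes the sequence only. The 100 bases before the annotated start are shown for these 3 neighbouring genes because each holds the element. They lie on the plus strand at chr9:7445722-7445821 (Mmp3), chr9:7502242-7502341 (Mmp10) and chr9:7272414-7272513 (Mmp13), with the AP-1 element in capitals.
Mmp3: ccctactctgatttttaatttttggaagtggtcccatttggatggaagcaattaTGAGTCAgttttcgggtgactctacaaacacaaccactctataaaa
Mmp10: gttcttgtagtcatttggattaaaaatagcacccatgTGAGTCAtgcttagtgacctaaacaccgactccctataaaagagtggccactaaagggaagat
Mmp13: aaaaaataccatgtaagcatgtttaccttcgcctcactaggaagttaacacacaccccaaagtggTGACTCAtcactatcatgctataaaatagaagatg

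Mmp3, stromelysin-1, cleaves proteoglycans, laminin and fibronectin and activates other pro-metalloproteinases. Its probe lies at chr9:7455751-7455810 (mm9). Its level was 0.41, 1.27, 0.64 and 0.90 in GFP-positive replicates 1 to 4, against 0.81, -0.04, -1.03 and 0.61 in GFP-negative replicates 1 to 4. GFP-negative replicates 3 and 2 were the lowest arrays, and the other 6 lay between 0.41 and 1.27. GFP-positive cells averaged 0.80 ± 0.37 and GFP-negative cells 0.09 ± 0.83 (SD, n = 4 each). The difference of 0.72 ± 0.40, or 1.64-fold, had a 95% interval of -0.20 to 1.63 (adjusted p = 0.321, limma). This was the largest difference of the 10, and its interval holds both no change and a 3.1-fold higher level in GFP-positive cells.

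Mmp10, stromelysin-2, is a close relative of Mmp3 made mainly by epithelial cells. Its probe lies at chr9:7510011-7510070 (mm9). Its level was -0.99, -0.81, -0.82 and -1.24 in GFP-positive replicates 1 to 4, and -0.61, -1.76, -1.80 and -1.20 in GFP-negative replicates 1 to 4. GFP-negative replicates 2 and 3 were the lowest arrays and GFP-negative replicate 1 the highest. The difference was 0.38 ± 0.26, or 1.30-fold (95% interval -0.23 to 0.99, adjusted p = 0.427, limma).

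Mmp13, collagenase-3, is the main interstitial collagenase of rodents. It was well above background on 4 GFP-positive and 3 GFP-negative arrays, while the other 9 genes were so on all 8, and its probe lies at chr9:7282762-7282821 (mm9). Its level was -3.45, -3.40, -3.26 and -3.62 in GFP-positive replicates 1 to 4, against -3.19, -4.86, -4.56 and -3.73 in GFP-negative replicates 1 to 4. As for Mmp10, GFP-negative replicates 2 and 3 were lowest and GFP-negative replicate 1 was highest. The GFP-positive arrays were closer together (SD 0.15) than the GFP-negative arrays (SD 0.76), a contrast of spread that was not tested. The difference was 0.65 ± 0.34, or 1.57-fold (95% interval -0.14 to 1.44, adjusted p = 0.296, limma). It was 0.20 with normexp background correction and quantile normalization, whose added offset shrinks differences of dim probes.

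The levels of Mmp10 and Mmp13 moved together across arrays. Mmp10 and Mmp13 had a Pearson r of 0.96 over the 8 arrays (Spearman rho 0.93), and 0.95 without the 2 arrays farthest from the median of Mmp10. Mmp3 followed less closely, with r = 0.80 for Mmp10 (rho 0.69) and 0.78 for Mmp13 (rho 0.67). Without the 2 arrays farthest from the median of Mmp3 these were 0.23 and 0.11, so both rest on those arrays. Mmp9, on chromosome 2, had an r of 0.68 with Mmp10 (rho 0.57) and 0.61 with Mmp13 (rho 0.45). Without the 2 arrays farthest from the median of Mmp9 these were 0.68 and 0.69, so likeness to this pair was not particular to the chromosome 9 genes. Of the 45 pairs of the 10 genes, 4 had an r over 0.7, and the median r was 0.01. The 4 were the 3 pairs among Mmp3, Mmp10 and Mmp13, and Mmp2 with Timp2. All arrays share a slide and a scan, and the values are given as descriptions. Fibroblast markers also differed between these arrays. Going by mean levels, the summed signal of the 9 genes came mostly from Col1a2 and Col1a1. Their means were 3.54 and 2.27 in GFP-positive and 5.49 and 4.39 in GFP-negative arrays. In multiples of the 75th percentile, the summed signal was 3.82 to 60.5 on GFP-positive arrays. On GFP-negative arrays it was 14.2 on replicate 1, where Mmp10 and Mmp13 were highest, and 98.9 to 171 on the other 3. Its part in the levels was not tested.

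**Figure D2:**
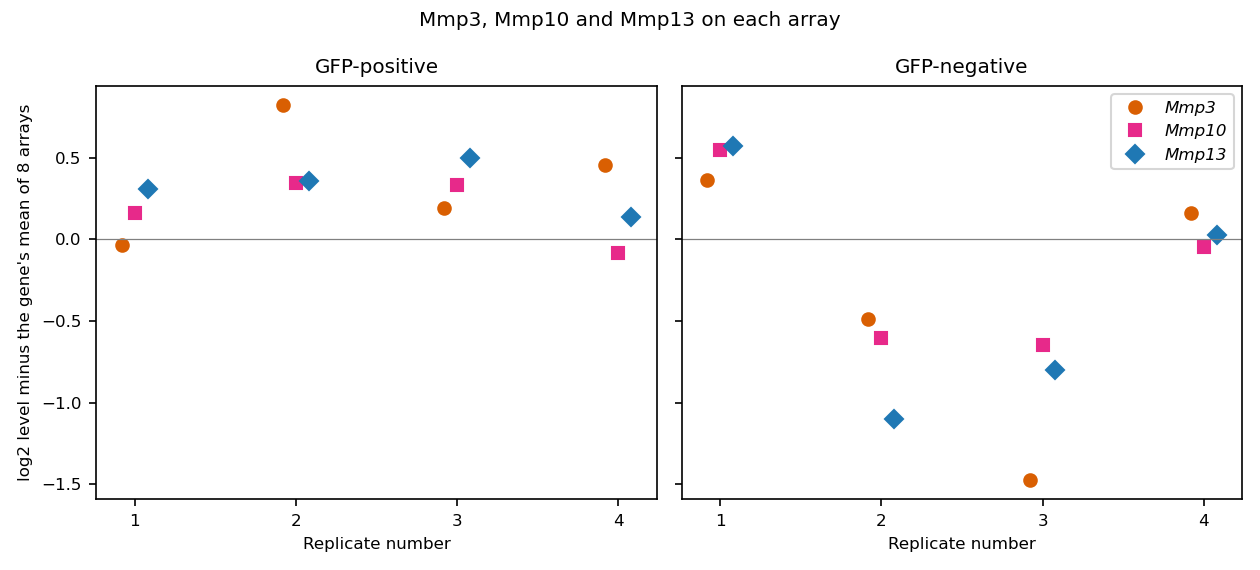
Log2 level of Mmp3 (circles), Mmp10 (squares) and Mmp13 (diamonds) on each array, minus the gene's mean over the 8 arrays, with GFP-positive arrays left and GFP-negative arrays right. In GFP-negative replicates 2 and 3 all 3 genes lie below their mean, and in GFP-negative replicate 1 all 3 lie above it.

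Other genes of the same chromosome 9 cluster were near background. Mmp1a, Mmp7, Mmp8, Mmp12 and Mmp20 were well above background on 0 of 8 arrays, Mmp27 on 1 GFP-positive array, and Mmp1b on 2 GFP-positive and 2 GFP-negative arrays. Mmp1b, a rodent collagenase relative, differed by 0.22 (adjusted p = 0.871, limma). The AP-1 subunits showed 0 rises and 0 falls among 7 tested genes in limma, at adjusted and unadjusted p under 0.05. Over all features the shares in either direction were 2.56% and 23%. The largest differences among the subunits were -0.36 ± 0.26 for Jun, -0.30 ± 0.27 for Fosl1 and 0.21 ± 0.15 for Fosl2 (adjusted p = 0.442, 0.555 and 0.439, limma).

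The gelatinase Mmp2 and its surface activator Mmp14 did not pass the threshold between the sorted fractions, and the levels of Mmp2 split by replicate number. Mmp2, gelatinase A, degrades basement membrane collagen and denatured collagen. Its probe lies at chr8:95376840-95376899 (mm9). Its level was 1.51, 2.54, 1.60 and 2.70 in GFP-positive replicates 1 to 4, and 2.01, 2.67, 1.66 and 2.72 in GFP-negative replicates 1 to 4. Replicates 1 and 3 of both groups lay between 1.51 and 2.01, and replicates 2 and 4 of both groups between 2.54 and 2.72. The GFP-positive array was the lower at each of the 4 numbers, by 0.50, 0.13, 0.06 and 0.01. The labels do not pair arrays by number, so this is a description and not a paired comparison. The share of all features with such a run is not given here. GFP-positive cells averaged 2.09 ± 0.62 and GFP-negative cells 2.26 ± 0.51. The difference was -0.18 ± 0.35 (95% interval -0.99 to 0.64, adjusted p = 0.807, limma), and 0.02 without GFP-positive replicate 1.

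Timp2, which inhibits Mmp2 and also carries it to Mmp14, had the same split of arrays. Its brighter probe, at chr11:118163146-118163205 (mm9, minus strand), was at 7.64, 8.08, 7.52 and 8.06 in GFP-positive replicates 1 to 4, and at 7.76, 8.06, 7.85 and 8.10 in GFP-negative replicates 1 to 4. Its other probe, whose annotated position spans 6778 bases of the genome from 118171964 to 118178741, was at 4.54, 4.92, 4.48 and 4.82 in GFP-positive replicates 1 to 4, and at 4.76, 5.08, 4.70 and 5.06 in GFP-negative replicates 1 to 4. On both probes replicates 1 and 3 of both groups were below replicates 2 and 4 of both groups. The differences were -0.12 ± 0.15 for the brighter probe (adjusted p = 0.689) and -0.21 ± 0.14 for the other (adjusted p = 0.413 over all kept probes, limma). On the other probe the GFP-positive array was lower at all 4 replicate numbers, by 0.16 to 0.24, though numbers are not known to pair arrays.

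Mmp2 and Timp2 had a Pearson r of 0.92 over the 8 arrays (Spearman rho 0.88), and 0.88 without the 2 arrays farthest from the median of Mmp2. Of all features tested, 5.08% had replicates 1 and 3 of both groups all below replicates 2 and 4, and 3.68% had the opposite order. Among the 10 genes Mmp2 and Timp2 had the first order and 0 had the opposite one. The labels do not say whether a replicate number marks a passage or a day. The number is also the array's column on the slide, so replicate number and column cannot be told apart. The summed fibroblast markers were 16.0 and 3.82 in GFP-positive replicates 1 and 3 and 14.2 and 98.9 in GFP-negative replicates 1 and 3. They were 37.1 and 60.5 in GFP-positive replicates 2 and 4, and 171 and 119 in GFP-negative replicates 2 and 4. Their part in the levels of Mmp2 and Timp2 was not tested.

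Row 1 of the slide held GFP-positive replicates 1 and 3 with GFP-negative replicates 2 and 4, and row 2 held the rest. Within row 1 the difference of Mmp2 was -1.14 (adjusted p = 0.0247, limma) and within row 2 it was 0.79 (adjusted p = 0.407), with 2 arrays against 2 in each. For Timp2 the values were -0.50 and 0.27 (adjusted p = 0.0981 and 0.467). Replicates 1 and 3 of a fraction were thus set against replicates 2 and 4 of the opposite fraction, and within a row the fraction and the replicate number cannot be told apart. Within row 1, 1053 features passed the threshold, and within row 2, 0 did in limma, so the calls within rows are not on the same footing. For Mmp3, Mmp10 and Mmp13 the differences were 0.24, 0.58 and 0.94 within row 1 and 1.19, 0.18 and 0.36 within row 2, positive in both and past the threshold in neither.

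**Figure D3:**
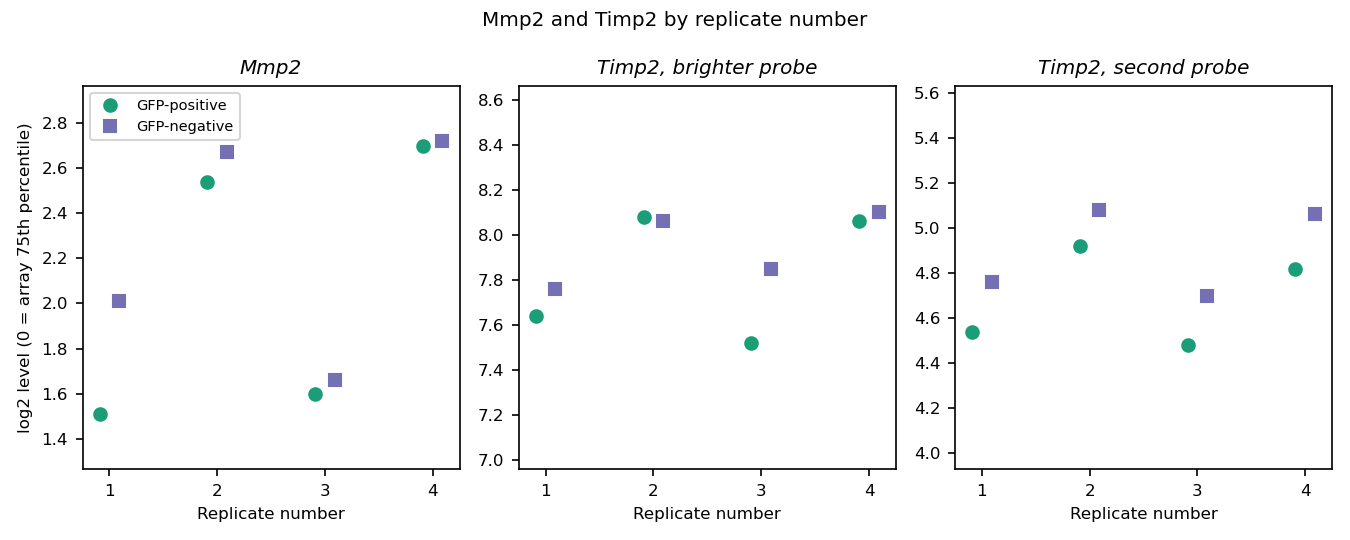
Log2 level of Mmp2 and of the brighter and second probe of Timp2 by replicate number, with GFP-positive arrays as green circles and GFP-negative arrays as purple squares. Replicates 1 and 3 lie below replicates 2 and 4 in both groups in all 3 panels.

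Mmp14, the membrane-bound MT1-MMP, is an interstitial collagenase anchored at the cell surface and central to invasion through collagen. Its probe lies at chr14:55058775-55058834 (mm9). Its level was 1.39, 1.57, 1.31 and 1.60 in GFP-positive replicates 1 to 4, against 1.31, 1.48, 1.27 and 1.28 in GFP-negative replicates 1 to 4. It varied least of the 10 genes, with a within-group SD of 0.12. The GFP-positive array was higher at all 4 replicate numbers, by 0.04 to 0.32, though numbers are not known to pair arrays. The difference was 0.13 ± 0.09, or 1.09-fold (adjusted p = 0.437, limma). Its 95% interval ran from -0.08 to 0.34, so among the proteases its change is the most closely bounded, at 1.27-fold higher or less.

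Mmp9, gelatinase B, is the other gelatinase and is abundant in neutrophils and macrophages as well as in tumour cells. Its probe, at chr2:164780620-164780679 (mm9), was printed 10 times on each array. Its level was -2.17, -1.28, -1.14 and -3.19 in GFP-positive replicates 1 to 4, and -1.33, -2.82, -2.48 and -1.11 in GFP-negative replicates 1 to 4. In each group some arrays were near -1.2 and others at -2.17 or below, and neither replicate number nor slide row separated them. Repeat spots on one array varied far less, with SDs of 0.0625 to 0.143, than arrays of one group, with an SD of 0.95 among GFP-positive arrays and 0.85 among GFP-negative arrays. A single spot was left out, on GFP-negative replicate 3. The difference was -0.01 ± 0.55 (95% interval -1.29 to 1.26, adjusted p = 0.993, limma), an interval that reaches from 0.41-fold to 2.4-fold. It was positive without GFP-positive replicate 1 or 4 or GFP-negative replicate 1 or 4, at most 0.40. The summed signal of 7 neutrophil markers was 73.6 to 94.0 on GFP-positive and 74.2 to 89.5 on GFP-negative arrays, and most of it came from Csf3r, at a mean level of 6.20 in GFP-positive and 6.26 in GFP-negative arrays. S100a8, Ly6g, Mpo and Elane were also well above background on all 8 arrays, S100a9 on 1 and Cxcr2 on 2. Ly6g differed by 0.93 (adjusted p = 0.0798, limma), and the part of these markers in the levels of Mmp9 was not tested.

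Timp1 and Timp3 were lower on average in GFP-positive cells by amounts that did not pass the threshold. Timp1 inhibits most secreted metalloproteinases, Mmp9 among them, and also acts as a growth factor. Its probe lies at chrX:20451802-20451861 (mm9). Its level was 6.11, 6.71, 6.36 and 6.49 in GFP-positive replicates 1 to 4, against 6.90, 6.74, 6.38 and 6.98 in GFP-negative replicates 1 to 4. The GFP-positive array was lower at all 4 numbers, by 0.79 and 0.49 at replicates 1 and 4 and by 0.03 and 0.02 at replicates 2 and 3. As above, numbers are not known to pair arrays. The means were 6.42 ± 0.25 and 6.75 ± 0.27 (GFP-positive and GFP-negative, SD, n = 4 each). The difference of -0.33 ± 0.17, or 0.794-fold, had the lowest adjusted p of the 10 genes (0.277, limma) and a 95% interval of -0.72 to 0.06. Within slide row 1 it was -0.62 and within row 2 -0.04, and neither passed.

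Timp3, which is bound to the matrix and also inhibits ADAM and ADAMTS proteases, has its probe at chr10:85811696-85811755 (mm9). Its level was 3.27, 3.62, 3.73 and 3.46 in GFP-positive replicates 1 to 4, and 3.89, 3.61, 3.71 and 3.66 in GFP-negative replicates 1 to 4. The widest gap was at replicate 1, where the GFP-positive array was lowest and the GFP-negative array highest. The difference was -0.20 ± 0.12 (95% interval -0.46 to 0.07, adjusted p = 0.353, limma). The separate 95% intervals of the 3 TIMPs reached -0.72 at the lowest (Timp1) and 0.24 at the highest (Timp2) on the log2 scale. They are not joint bounds, and within slide row 2 Timp2 was at 0.27.

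Adamts1, a secreted protease that cuts the proteoglycans versican and aggrecan, has its probe at chr16:85795044-85795103 (mm9, minus strand). Its level was 5.62, 5.13, 4.30 and 4.98 in GFP-positive replicates 1 to 4, and 4.79, 4.77, 5.89 and 4.84 in GFP-negative replicates 1 to 4. GFP-negative replicate 3 stood above the other 3 GFP-negative arrays, and GFP-positive replicate 3 was the lowest of all 8. The difference was -0.07 ± 0.34 (95% interval -0.85 to 0.71, adjusted p = 0.928, limma). Leaving out GFP-negative replicate 3 gave 0.20 (adjusted p = 0.710). Leaving out GFP-positive replicate 3 gave 0.17, so the direction rests on these arrays.

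**Figure D4:**
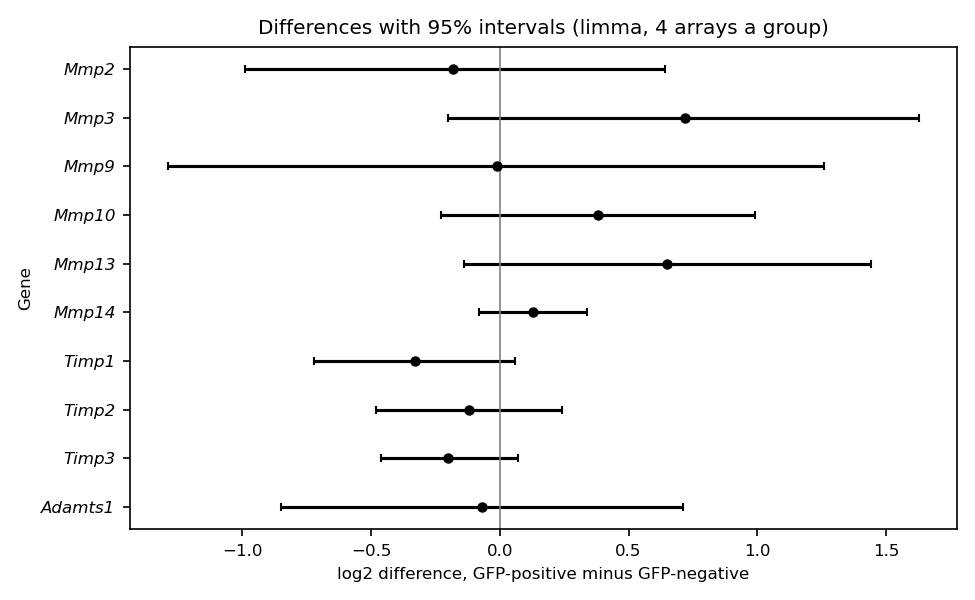
Log2 difference of each of the 10 genes, GFP-positive minus GFP-negative, with its 95% interval from limma (4 arrays a group). Every interval includes 0, and those of Mmp14 and Timp3 are the narrowest while that of Mmp9 is the widest.

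Most of the genes varied more within groups than the median feature. The within-group SDs of Mmp9 (0.90), Mmp3 (0.64), Mmp2 (0.57), Mmp13 (0.55), Adamts1 (0.54) and Mmp10 (0.42) each exceeded those of more than 80% of all features. That of Mmp9 exceeded 97.6% of them. The SDs of Timp1 (0.26), Timp2 (0.23), Timp3 (0.17) and Mmp14 (0.12) exceeded 67.4%, 63.4%, 47.1% and 27.6%. The median over the 10 genes was 0.48 against 0.18 over all features.

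The features whose levels were most like each gene's over the 8 arrays are given as a description, out of 19697 features compared. For Mmp2 they included Nod1 (r = 0.987) and Prrg1 (0.982), and for Timp2 they were Colec12 (0.987), Wnt6 (0.980) and Hspb6 (0.978). For Timp1 they were Dlk1 (0.987), Mapkap1 (0.983) and Fabp7 (0.978). For Mmp9 they were Urgcp (0.991), Cd300lg (0.984) and Nkapd1 (0.970). Mmp13 had Mmp10 (0.960) and Cyld (0.958) among its 3 closest, and Mmp10 had Ust (0.967), Nbl1 (0.967) and Cyld (0.963). For Timp3 they were Zfp106 (0.965), Cul4a (0.964) and Lpgat1 (0.963), and for Mmp14 U2af1l4 (0.957), Znrd1as (0.956) and Hist2h3c2 (0.950). Crhr1 (0.956) and Actg2 (0.951) were among those of Mmp3, and Cfap20 (0.951) and Lime1 (0.946) among those of Adamts1. For some genes many features reached such values: 344 exceeded an r of 0.9 with Timp2, 178 with Timp1 and 150 with Mmp2, but 22 with Mmp3. Why these counts differ was not tested. None of the features named here passed the threshold between the fractions.

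Among matrix protease genes outside the 10, a membrane-type metalloproteinase, a serpin and a lysosomal protease rose in GFP-positive cells. Of 17 other matrix metalloproteinases 6 were measured, 1 rose and 0 fell, against 1.82% and 0.741% of all features. The other 11 were not well above background on enough arrays to be tested. Mmp15, the membrane-bound MT2-MMP, was at -2.11, -2.03, -1.78 and -2.32 in GFP-positive replicates 1 to 4, against -4.35, -5.40, -5.84 and -4.66 in GFP-negative replicates 1 to 4. The groups did not overlap, as for 16.7% of all features, and 1 GFP-negative array, replicate 3, was not well above background. The rise was 3.00 ± 0.31, or 8.01-fold (adjusted p = 0.0035, limma). It was 3.08 within slide row 1 and 2.92 within row 2 (adjusted p = 0.0232 and 0.376, limma). With normexp background correction and quantile normalization, whose added offset shrinks differences of dim probes, it was 1.25 (adjusted p = 0.000525, limma). The size of the rise thus depends on the processing. The probe lies at chr8:97897703-97897762 (mm9). In the same list Mmp23 differed by -0.84 ± 0.55 and Mmp24, another membrane-type enzyme that was well above background on 7 arrays, by 0.68 ± 0.22 (adjusted p = 0.392 and 0.122, limma).

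Of 19 genes of plasminogen activation and pro-enzyme processing 17 were measured, 2 rose and 0 fell, with a median difference of 0.29. Over all features 1.82% rose and 0.741% fell. Serpine2, protease nexin-1, an inhibitor of plasminogen activators and thrombin, was at 1.25, 1.07, 1.62 and 1.42 in GFP-positive replicates 1 to 4, against 0.03, -0.54, -0.99 and -0.92 in GFP-negative replicates 1 to 4. It rose by 1.94 ± 0.23, or 3.85-fold (adjusted p = 0.00643, limma), 2.17 within slide row 1 and 1.72 within row 2. Ctsd, the lysosomal protease cathepsin D, was at 6.67, 6.53, 6.59 and 6.58 in GFP-positive replicates 1 to 4, against 5.94, 6.03, 5.90 and 5.81 in GFP-negative replicates 1 to 4. It rose by 0.67 ± 0.07, or 1.60-fold (adjusted p = 0.00412, limma, and 0.132 with arrays scaled to their median). The groups of both genes did not overlap, as for 16.7% of all features. The macrophage markers Cd68 and Cd14, whose rises are given above, were also higher in GFP-positive cells. Csf1r and Itgam did not pass the threshold, and Ptprc, Adgre1 and Fcgr1 were well above background on at most 1 array. The part of these markers in the rise of Ctsd was not tested. Serpinb2, an inhibitor of urokinase, had the next largest difference of the list, 1.67 ± 1.07 (adjusted p = 0.389), followed by the kallikrein Klk8 at 1.20 ± 0.49 (adjusted p = 0.199). Plau, the urokinase plasminogen activator, and Plaur, its receptor, differed by 0.29 and -0.27 (adjusted p = 0.421 and 0.418, limma).

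Of 12 other inhibitors and cofactors 5 were measured, and of 25 other ADAMTS and ADAM proteases 17. In limma 0 of either list passed the threshold. At an unadjusted p under 0.05, 0 and 4 were higher and 1 and 4 lower (limma). Over all features 7.83% were higher and 15.1% lower at that p. Serpinf1, an antiangiogenic serpin, differed by -2.17 ± 0.71, Thbs2, a matrix glycoprotein that binds metalloproteinases, by 1.22 ± 0.62 and Pcolce, an enhancer of procollagen processing, by -0.56 ± 0.42 (adjusted p = 0.129, 0.278 and 0.460, limma). Bsg, known as the metalloproteinase inducer EMMPRIN, differed by less than 0.01 in size (adjusted p = 0.996). Adam19 differed by -1.33 ± 0.43, Adamts15 by 1.14 ± 0.75 and Adamts2, which trims procollagen, by -0.92 ± 0.83 (adjusted p = 0.123, 0.402 and 0.551, limma). Timp4, the remaining member of the TIMP family, and Reck, a membrane-anchored inhibitor, were below the filter and not tested.

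**Figure D5:**
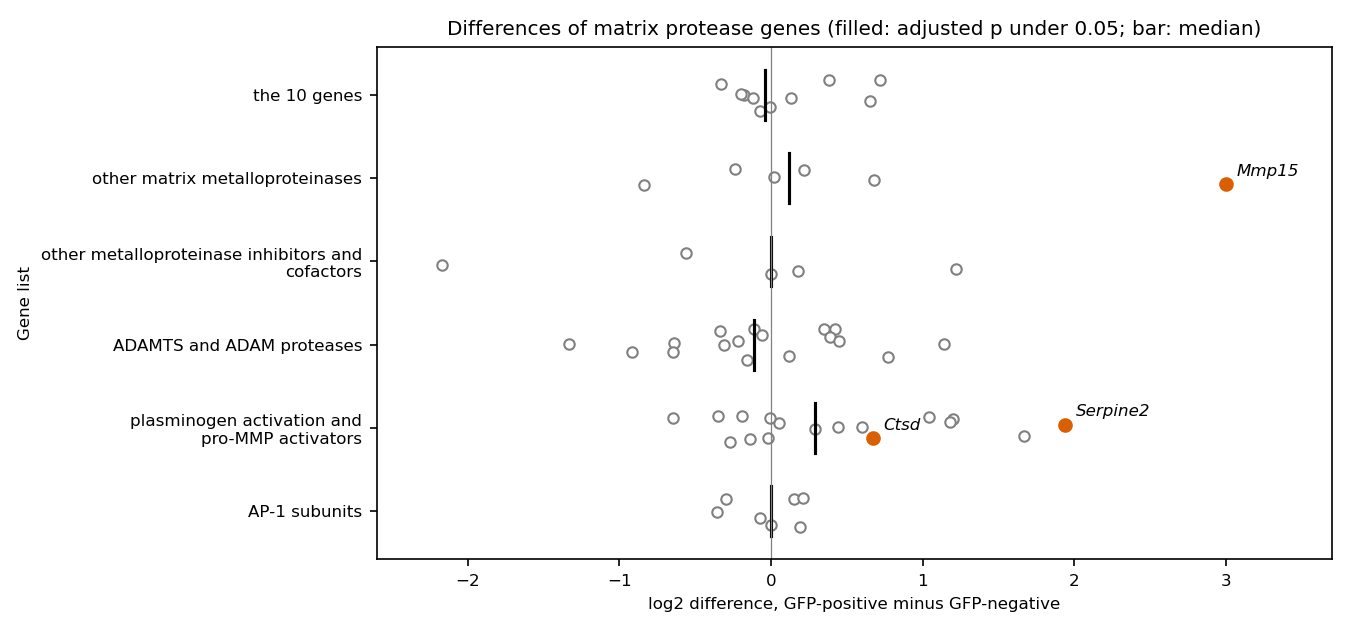
Log2 differences, GFP-positive minus GFP-negative, of the 10 genes and of the tested genes of 5 matrix protease lists. Each point is a gene, filled points passed an adjusted p of 0.05 in limma, and bars are list medians. Mmp15, Serpine2 and Ctsd are the filled points.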

How the data were processed

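Each file held the scanner output of 1 one-colour (Cy3) array. Per the file headers it was made with Agilent Feature Extraction 10.7.3.1, protocol GE1_107_Sep09, with probe positions on mm9. The deposited intensity used here was the scanner software's background-corrected processed signal. An alternative used the deposited mean signal and local background. These values carry no scaling between arrays, and later steps of the authors are not stated in the labels.

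Spots marked as outliers were left out (106 to 186 per array). No spot was saturated. The log2 processed signal was set relative to each array's 75th percentile, and spots of a probe were averaged. A probe was kept where 4 or more of the 8 arrays had it well above background (27590 probes). The brightest of these stood for its gene, giving 19709 features. Levels of different probes were not compared, apart from naming the main contributors to marker sums. Accessions of 27509 of 55681 probes (49.4%) matched RefSeq symbols of GRCm38.p6. Exon and UTR positions of probes were not analysed here.

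The difference was fitted with limma 3.58.1 in R 4.3.3 (two-sided, no replicate block) with Benjamini-Hochberg adjustment over all features. In data simulated on 19698 genes for this comparison, the test called 36% of log2 changes of 0.5 and 74% of 1. It called 88% of changes of 2 and 94% of 3, with 13 false calls. These shares are not for the 10 genes, whose median within-group SD was 0.48 against 0.18 over all features. They say little about the more variable of the 10. The number of arrays limits the precision. The labels do not say which experiment an array belongs to, so p-values measure the spread between these arrays.

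The 10 genes, the lists and the rule for named genes were chosen with earlier results of these data known. The rule took all 10 genes, from each list every gene past the threshold or the 3 largest differences, and the 3 features most like each gene. Genes named outside it are Mmp1a, Mmp1b, Mmp7, Mmp8, Mmp12, Mmp20, Mmp27, Plau, Plaur, Bsg, Timp4 and Reck. Same-numbered arrays were not alike beyond their group: deviations from group means correlated at -0.03, 0.07, 0.02 and 0.18 for numbers 1 to 4. Across groups, numbers 1 and 3 were alike, at 0.43 (GFP-positive 1 with GFP-negative 3) and 0.6 (3 with 1). Numbers 2 and 4 gave 0.34 (GFP-positive 2 with GFP-negative 4) and 0.65 (4 with 2). An odd number with an even one gave -0.53 to -0.16. The fit has no term for this split.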

Additional observations from a re-analysis of the deposited data

Results flagged for a closer look

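Adamts1 on GFP-negative replicate 3 was at 5.89, while the other 3 GFP-negative arrays lay between 4.77 and 4.84. The gap takes up 0.939 of the group's range, above Dixon's 95% critical value for 4 arrays. The 10 genes and the genes named from the lists were examined this way, 26 in all and 52 groups, and chance alone marks about 1 in 20 groups.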

How the results depend on the processing

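The count of the 10 genes past the threshold was 0 under 20 of 21 alternatives in limma and 1, Mmp2, within slide row 1 (-1.14, against 0.79 within row 2). Leaving out each array gave 151 to 428 features in all, lowest without GFP-positive replicate 1 and highest without GFP-positive replicate 2. The count of features was 203 with median scaling, 154 with no filter, 1449 with array weights, 1166 with an intensity trend and robust prior, 278 with slide row as a block, and 1053 and 0 within rows 1 and 2. Median scaling moved the median of all features by -0.12. The replicate block gave 215 features and called 0 of the 10 genes, 1 ADAMTS or ADAM protease and 1 plasminogen gene. Serpine2 had an adjusted p of 0.0514 with it (limma). Under this block the standard error of Mmp2 was 0.11 instead of 0.35, and that of Mmp9 was 0.68 instead of 0.55. Signs changed for Timp2 with quantile normalization (0.03), with normexp (0.05) and within row 2 (0.27), and for Adamts1 with quantile normalization (0.05), with normexp (0.05), with array weights (0.14) and within row 1 (0.15). They also changed within row 1 for Mmp9 (0.31) and Mmp14 (-0.03). Leaving out each array gave -0.38 to 0.02 for Mmp2, -0.31 to 0.40 for Mmp9 and -0.27 to 0.20 for Adamts1. The counts of the lists moved to 0 other metalloproteinases with probes above background on all 8 arrays (Mmp15 is filtered out) and within row 2, to 2 within row 1, and to 1 inhibitor or cofactor within row 1. They were 2 ADAMTS or ADAM proteases with array weights and within row 1, and 0 to 1 leaving out each array (1 without GFP-positive replicate 4). Of the plasminogen list 1 passed with median scaling, 4 within row 1 and 0 within row 2. Mmp13 has no value with probes above background on all 8 arrays. The cause was not tested.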
